A study of Drosophila melanogaster with 4 samples.

Results

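CTCF peaks whose midpoint lay within 250 bp of a start or end of an H2A.V region, on either side of that edge, numbered 504 of the 2459 CTCF peaks in the deposited list (20.5%). These edge peaks were chosen by the deposited positions of both lists, and the edge is the nearest start or end of a listed H2A.V region on the same sequence name. The peaks come from chromatin immunoprecipitation and sequencing (ChIP-seq) of wild-type Drosophila melanogaster embryos of mixed, unstaged age. The CTCF ChIP and the H2A.V ChIP were analysed, with 1 library for each antibody, and an input and an H3 ChIP of the same chromatin belong to the study. Whole embryos hold many cell types, so a peak and a region that lie side by side need not have been in the same cells. The antibody label of the H2A.V library gives H2A.V, whereas its title gives another histone name, and the antibody label was followed.

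CTCF is a zinc-finger protein that binds DNA at defined sites. In the fly it is one of several insulator proteins, which bind chromatin domain borders and limit which promoters an enhancer can reach. H2A.V is the fly's H2A variant, the counterpart of H2A.Z and H2A.X of other animals. It is known from nucleosomes downstream of the start sites of active genes. Insulator proteins are also known to sit in nucleosome-depleted DNA with positioned nucleosomes on their flanks.

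The CTCF library held 11657333 tags and the H2A.V library 12260001 tags, per the file headers. Each CTCF peak spanned 201 bp and was centred by the peak caller on its highest tag pile-up. Windows of 500 bp were stitched together into H2A.V regions, so a region's edge is known less finely than a CTCF midpoint. Tag counts per peak were not used here, and each peak counts as listed or not listed. With no replicate library, no test of a condition was made. The 95% intervals below are Wilson intervals for shares and exact binomial intervals for medians, and they cover counting error only, since neighbouring peaks are not independent samples. A difference between groups of peaks given below therefore describes these 2 lists.

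The edge peaks fell on both sides of the edge in similar number. Of the 504, 265 (52.6%, interval 48.2 to 56.9%) had their midpoint outside every H2A.V region and 239 (47.4%, 43.1 to 51.8%) had it inside. The distance to the edge had a median of 126.5 bp outside (quartiles 66.5 and 163.5 bp) and 148.5 bp inside (quartiles 71.5 and 203.5 bp). Of the outside peaks, 162 (61.1%, 55.1 to 66.8%) shared no base with the region, and the other 103 reached into it with part of their 201 bp.

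The peaks were selected on these distances, so the profile is a description with no test. Of the 25 bp bins within 250 bp of the edge, the fullest held 48 midpoints at 125 to 150 bp outside, and the next fullest, beside the limit, 38 at 225 to 250 bp inside. The bins on either side of the edge itself held 20 (first 25 bp outside) and 21 (last 25 bp inside). The count dropped across the limit on both sides, but inside it rose again farther in. Outside, the last bin before 250 bp held 12 midpoints and the first bin after it 6, and inside the same bins held 38 and 17. Deeper inside, the bins from 650 to 575 bp held 45, 45 and 43 midpoints. Regions of 501 bp hardly reach deeper than 250 bp, so the inside bins past the limit come almost wholly from wider regions. The members nearest the limit lay 249.5 and 248.5 bp from an edge, and the nearest peaks left out lay at 250.5 and 252.5 bp. A total of 50 members lay at 225 to 250 bp and 23 CTCF peaks lay at 250 to 275 bp.

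**Figure D1:**
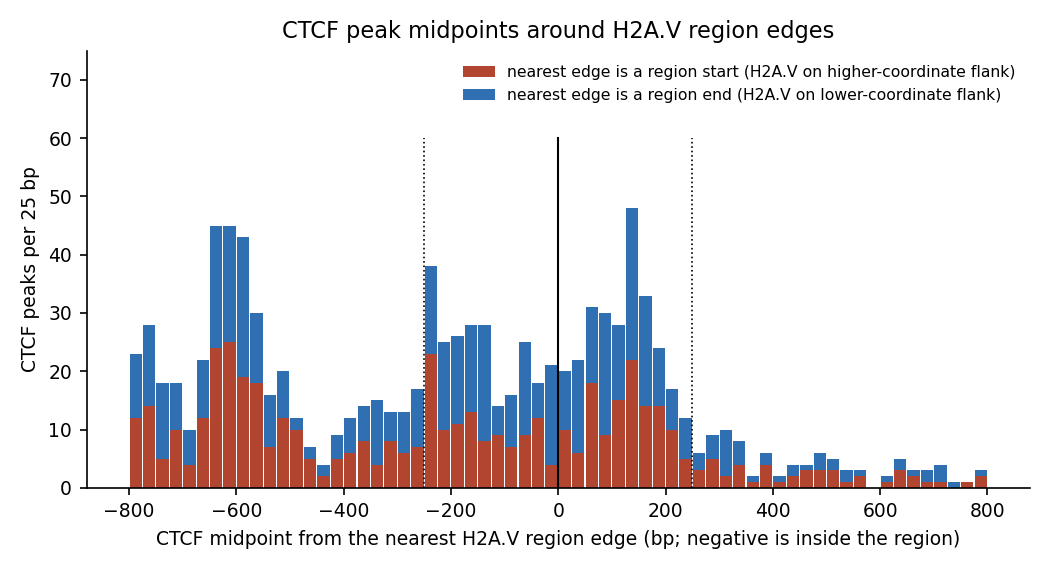
CTCF peak midpoints per 25 bp (vertical axis) by distance from the nearest H2A.V region edge in bp (horizontal axis, negative inside the region), for nearest edges that are a region start and for those that are a region end. The dotted lines mark 250 bp, and the fullest bin between them holds 48 midpoints at 125 to 150 bp outside. Within the range shown, bins farther outside than 250 bp hold few midpoints each. On the inside the count rises again, to 43 to 45 midpoints per bin at 575 to 650 bp. The 1092 CTCF peaks over 5 kb outside any H2A.V region lie beyond that range.

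The deposited positions show what such a peak looks like, and on each side the 2 members highest in the list on 2L, 3L, 3R or X were taken. The first such outside member, line 2 of the CTCF list, lay on 2L from 490155 to 490355 (dm3). Its midpoint was 63.5 bp below an H2A.V region from 490319 to 490819, so H2A.V lay on its higher-coordinate flank. On the other flank the next H2A.V region was 16747.5 bp away. The second outside member, line 23, lay on 2L from 15498857 to 15499057, 128.5 bp below a region from 15499086 to 15499711. Its open flank held no H2A.V region for 241304.5 bp.

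The first such inside member, line 31, lay on the X from 18737490 to 18737690. Its midpoint was 30.5 bp within a region from 18737560 to 18738191, and the next region across the peak was 12533.5 bp away. The second, line 47, lay on 2L from 2855963 to 2856163, 33.5 bp within a region from 2856030 to 2857725. The next region across that peak was 83766.5 bp away. In all 4 of these H2A.V stood on the higher-coordinate flank and the open flank reached over 10 kb.

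Over all members the H2A.V region lay slightly more often towards lower coordinates. It did so for 275 of 504 (54.6%, 50.2 to 58.9%), and towards higher coordinates for 229 (45.4%, 41.1 to 49.8%). No midpoint was equally far from both edges of a region. The lower flank was the more frequent for peaks inside (133 of 239, 55.6%) and for peaks outside (142 of 265, 53.6%), with intervals that include equal shares in each. Among CTCF peaks over 500 bp inside a region, the nearer edge was a region end, which puts the region on the lower flank, for 239 of 471 (50.7%, 46.2 to 55.2%).

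The flank differed between chromosome arms. H2A.V was on the lower-coordinate flank of 55 of 84 members on 2R (65.5%, 54.8 to 74.8%) and of 64 of 106 on 3R (60.4%, 50.9 to 69.2%). On 2L it was 41 of 81 (50.6%, 40.0 to 61.2%), on 3L 47 of 99 (47.5%, 37.9 to 57.2%) and on the X 62 of 121 (51.2%, 42.4 to 60.0%). The excess of lower flanks thus came from the right arms, and the intervals of all 5 arms share a range. The arms were compared after their values had been seen. Coordinates say nothing of transcription, and gene orientation was not analysed here.

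The H2A.V regions with an edge peak were narrow. The 504 members lay at 500 of the 3229 H2A.V regions, and these had a median width of 854 bp (801 to 909 bp). All listed regions had 1347 bp (1313 to 1378 bp), regions with no CTCF peak inside or within 250 bp had 1325.5 bp, and regions with a CTCF peak over 500 bp inside had 1947 bp. The last value is raised by the class itself, since only a region of over 1000 bp has such an inside. The rule also bears on the 854 bp. Almost all of the inside of a 501 bp region lies within 250 bp of an edge. The middle of a wide region does not, so CTCF peaks there are left out. The width of 501 bp, a single calling window, belonged to the region of 99 members (19.6%, 16.4 to 23.3%), against 12.6% of all H2A.V regions.

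An edge peak was found at 24.0% (20.1 to 28.4%) of the 408 regions of 501 bp, at 32.4% (26.6 to 38.8%) of the 222 regions of 502 to 699 bp and at 26.2% (22.6 to 30.2%) of the 522 regions of 700 to 999 bp. The share was 21.2% (17.4 to 25.5%) of the 387 regions of 1000 to 1299 bp. It was 6.62% (5.18 to 8.41%) of the 922 regions of 1300 to 1999 bp and 6.51% (4.97 to 8.48%) of the 768 regions of 2000 bp or more. All classes under 1300 bp thus lay above both wider classes, with intervals that do not meet. The zone that counts as an edge was of about the same length in every class. At narrow regions that zone held most of the inside, and at wide ones only the ends, so these shares are a description.

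The side of the edge also went with width. At regions of 501 bp, 77 of 99 members lay outside (77.8%, 68.6 to 84.8%), and their median place was 109.5 bp outside the edge. Of these 99, 50 lay between 50 and 150 bp outside. At regions of 502 to 699 bp, 52.8% lay outside (41.4 to 63.9%), at 700 to 999 bp 44.5% (36.5 to 52.9%) and at 1000 to 1299 bp 41.0% (31.0 to 51.7%). In the last of these classes the median place was 73.5 bp inside. At 1300 to 1999 bp 46.8% lay outside (34.9 to 59.0%), and at 2000 bp or more 51.0% (37.7 to 64.1%). Only in the narrowest class did the interval lie wholly above equal shares, and in no class wholly below.

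**Figure D2:**
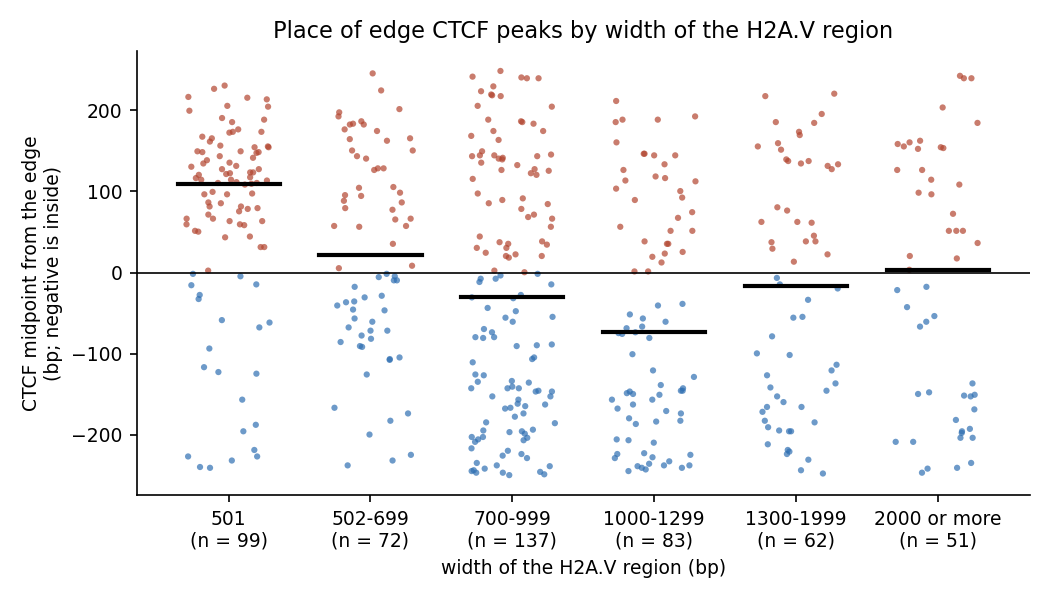
Distance of each edge peak's midpoint from the H2A.V region edge in bp (vertical axis, negative inside) by width class of the region in bp (horizontal axis); each point is a peak, with outside peaks in red and inside peaks in blue, spread sideways for visibility, and the black bars are medians. The median lies 109.5 bp outside at regions of 501 bp and 73.5 bp inside at regions of 1000 to 1299 bp.

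The flank across the peak from the edge region was mostly empty of H2A.V. A second H2A.V region lay within 5 kb of the midpoint across 88 of the 504 peaks (17.5%, 14.4 to 21.0%), within 2 kb of 40 (7.94%) and within 1 kb of 22 (4.37%). It lay within 10 kb of 152 (30.2%, 26.3 to 34.3%). The share within 5 kb was 17.7% (13.6 to 22.8%) for outside peaks and 17.2% (12.9 to 22.4%) for inside peaks. The median distance from the midpoint to the region across was 28696.5 bp over the 503 members that had such a region on their sequence. Most H2A.V region edges of any kind also had no neighbour that near. By the gap between edges, the next region lay within 5 kb at 36.9% of all region edges and within 1 kb at 7.46%.

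Measured from edge to edge, the gap beyond the edge at the CTCF peak was wider than gaps in general. Its median was 28505 bp (22121 to 32574 bp) over 503 members at 480 gaps, where a gap with an edge peak at both ends counts for each. Beyond the other edge of the same regions the median was 11492 bp (9525 to 13694 bp, 500 members). All 6434 H2A.V region edges with a neighbour, the members' own included, had a median gap of 8358 bp (8009 to 8877 bp). Edges of regions with no CTCF peak inside or within 250 bp had 6973.5 bp (6734 to 7365 bp). The next region lay within 5 kb at 91 of the 503 CTCF edges (18.1%, 15.0 to 21.7%) and at 150 of 500 other edges of the same regions (30.0%, 26.2 to 34.2%), against 36.9% of all region edges.

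The 2 gaps of each region were then set side by side, which compares places with the same region between them. The gap beyond the edge with the CTCF peak was the longer of the 2 for 308 of 499 members (61.7%, 57.4 to 65.9%). The share was 68.1% (61.9 to 73.7%) for inside peaks and 55.9% (49.9 to 61.8%) for outside peaks, where the interval includes equal shares. For CTCF peaks over 500 bp inside a region, the gap beyond the nearer edge was the longer for 248 of 466 (53.2%, 48.7 to 57.7%), with medians of 11551 bp beyond the nearer and 8129.5 bp beyond the farther edge. This comparison was added after the gaps had been seen.

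The longer gap at the CTCF edge was seen on each of the 5 large arms, from 57.9% of members on the X (48.9 to 66.3%) to 65.7% on 3L (55.9 to 74.3%). The intervals on the X and on 2R (60.2%, 49.5 to 70.1%) include equal shares. It went with the width of the region. The share was 47.4% (37.8 to 57.3%) at regions of 501 bp and 54.2% (42.7 to 65.2%) at 502 to 699 bp, and 62.5% (54.1 to 70.2%) at 700 to 999 bp. At 1000 to 1299 bp it was 71.1% (60.6 to 79.7%), at 1300 to 1999 bp 70.5% (58.1 to 80.4%), and at 2000 bp or more 72.0% (58.3 to 82.5%). At regions of 501 bp the median gaps were 21034 bp beyond the CTCF edge and 18543 bp beyond the other. The edges of all 408 regions of this width had a median gap of 8211 bp, so only those with an edge peak stood apart on both sides. At regions of 2000 bp or more the medians were 21369 bp beyond the CTCF edge and 7516.5 bp beyond the other, against 6909 bp at all edges of that class.

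**Figure D3:**
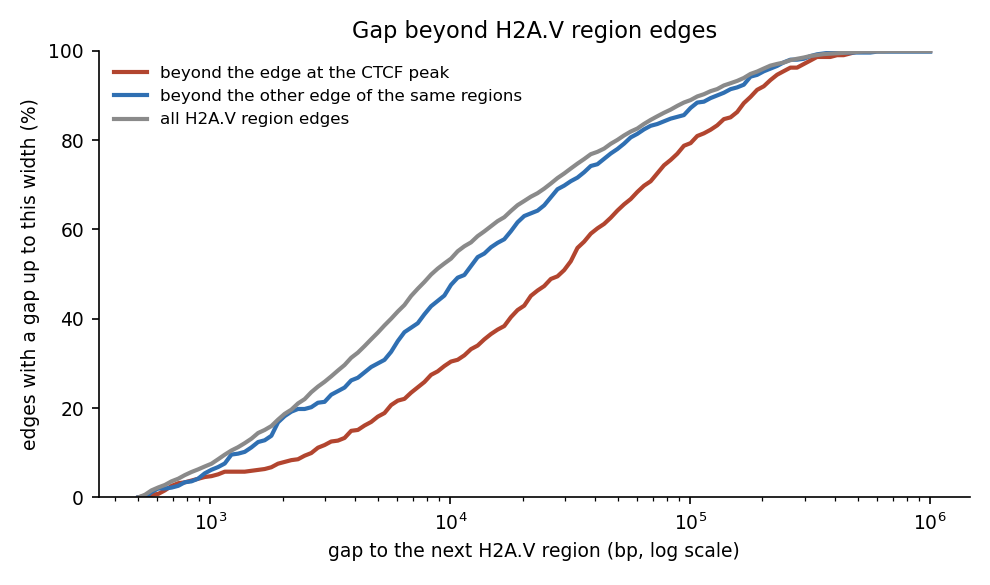
Share of edges with a gap up to a given width (vertical axis, percent) by width of the gap to the next H2A.V region in bp (horizontal axis, log scale), for edges at a CTCF edge peak, for the other edges of the same regions and for all region edges. The medians are 28505 bp at CTCF edges, 11492 bp at the other edges and 8358 bp at all edges; the curves of the CTCF and the other edges run close together at gaps under 1 kb.

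H2A.V coverage of the surrounding DNA differed in the same direction at longer range. At 1 to 5 kb beyond the edge on the open flank, 5.25% of bases lay in an H2A.V region, against 12.8% beyond all region edges. At 5 to 10 kb the values were 6.24% at edge peaks and 11.2% at all edges, and at 10 to 20 kb 5.47% and 8.65%. At 20 to 50 kb they were close, with 5.51% and 6.25%. On the flank that holds the region, coverage at 1 to 5 kb was 15.3% at edge peaks and 24.8% at all edges, a stretch that includes the rest of the region itself where it is wider than 1 kb. At 5 to 10 kb it was 10.3% at edge peaks and 12.2% at all edges, and at 10 to 20 kb 8.79% and 9.12%. Coverage was thus lower at edge peaks than at all edges on both flanks at 1 to 5 kb, and from 5 to 20 kb the difference was larger on the open flank.

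**Figure D4:**
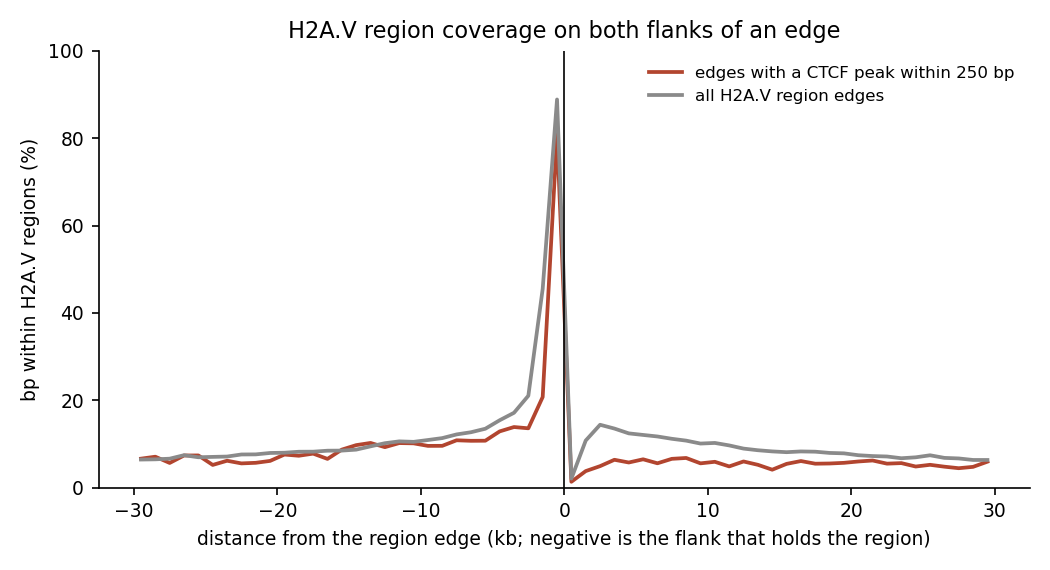
Percent of bases inside H2A.V regions per 1 kb (vertical axis) by distance from the region edge in kb (horizontal axis, negative on the flank that holds the region), for edges with a CTCF peak within 250 bp and for all region edges. At 1 to 5 kb on the open flank the coverage is 5.25% at edge peaks and 12.8% at all edges.

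A smaller set of members had H2A.V close on both flanks. The gap at the peak was at most 1 kb for 24 of 503 members (4.77%, 3.23 to 7.001%), against 7.46% of all region edges. The narrowest gap between any neighbouring regions was 504 bp, and windows nearer than that were not listed apart, so a CTCF peak between close stretches of H2A.V can be listed only as inside a region. Of the 24 members, 16 had their midpoint in the gap, 8 stood at a region of 501 bp and 9 were on the X. The rule itself keeps members off the centre of a gap, since no gap was under 504 bp and the limit is 250 bp. For these 16, midpoints lay 63.5 to 239.5 bp from the nearer region (median 110.5 bp) and 330.5 to 841.5 bp from the other (median 550 bp). The median place was 16.9% of the way across the gap, in a range of 7.53 to 42.0%. The rule puts a peak within 250 bp of an edge, which limits this share from above in every one of these gaps, so it is a description only.

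The narrowest gap at a member was 509 bp and was found at 2 places. On 2L, the peak from 9699222 to 9699422 lay 97.5 bp above a region from 9698724 to 9699224, and the region across began 411.5 bp from its midpoint. On 3L, the peak from 19786638 to 19786838 lay 85.5 bp above a region from 19785889 to 19786652, with the region across at 423.5 bp. Of members with a second region within 5 kb, the 2 highest in the list had wider gaps. The first of these, on the X from 16531385 to 16531585, had a region on its lower flank at 147.5 bp and the other at 2307.5 bp. The second, on 3L from 21278744 to 21278944, had a region on its higher flank at 85.5 bp and the other at 3763.5 bp.

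Some gaps had an edge peak at both ends. Of the 480 gaps with at least 1 edge peak, 23 (4.79%) had another at the facing edge. These were wide, with a median of 44701 bp (610 to 462259 bp), and 1 was under 5 kb. For a base counted by edges, an edge peak stood at 503 of the 6434 H2A.V region edges with a neighbour. Each of the 23 gaps has both of its edges among these 503. Whether the 23 are more or fewer than unrelated edges would give was not tested.

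CTCF at both ends of a single H2A.V region was found at 4 of the 500 regions with an edge peak. Those 500 are 15.5% of all 3229 regions, a share that counts a peak at either end. It is not the base for a second peak at the other end. By edges, an edge peak stood at 503 of the 6434 edges with a neighbour. Whether the count of 4 differs from that of unrelated edges was not tested either. The region on 3L from 15154805 to 15156909 (2105 bp) had midpoints 66.5 and 151.5 bp inside its ends, 1887 bp apart. The region on 3L from 23331261 to 23332309 (1049 bp) had them 19.5 and 51.5 bp outside, 1120 bp apart. On the X, the region from 15604856 to 15606432 (1577 bp) had them 195.5 and 173.5 bp outside, 1946 bp apart. The region on the X from 11002495 to 11002995 (501 bp) had a midpoint 51.5 bp outside its lower end and another 15.5 bp inside its upper end, 537 bp apart. The CTCF caller kept peaks at least 400 bp apart, so the last pair is near the closest that could be listed. A further 12 regions had an edge peak and another CTCF peak over 250 bp inside, so most regions had a CTCF peak at a single edge.

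The next CTCF peak was about as far from an edge peak as from CTCF peaks in general. The median distance to the nearest other CTCF midpoint was 15632 bp (13925 to 17518 bp), against 13334 bp (11176 to 14906 bp) for peaks over 500 bp inside, 19669 bp (17781 to 21772 bp) for peaks over 5 kb outside, and 16228 bp (15317 to 17089 bp) for all. Another CTCF peak lay within 5 kb of 77 edge peaks (15.3%, 12.4 to 18.7%), against 14.8% of all CTCF peaks. On the H2A.V flank the next CTCF peak was at a median of 25178 bp (22895 to 27640 bp), and on the open flank at 32390.5 bp (28927 to 36668 bp). It was nearer on the H2A.V flank for 276 of 499 members (55.3%, 50.9 to 59.6%), and for 248 of 467 peaks over 500 bp inside (53.1%, 48.6 to 57.6%). Neighbouring edge peaks were 152783 bp apart at the median.

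Edge peaks on the X lay outside the region more often than those on the autosomal arms. On the X 84 of 121 did so (69.4%, 60.7 to 76.9%). On 2L, 2R, 3L and 3R together 175 of 370 did so (47.3%, 42.3 to 52.4%). As a share of all CTCF peaks, outside edge peaks were 16.6% (13.6 to 20.1%) on the X and 9.29% (8.06 to 10.7%) on the autosomal arms. Inside edge peaks were 7.31% (5.35 to 9.92%) on the X and 10.4% (9.06 to 11.8%) on the autosomal arms. Edge peaks of both kinds together were 23.9% (20.4 to 27.8%) of the X-linked CTCF peaks and 19.6% (17.9 to 21.5%) of the autosomal ones.

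The autosomal arms were alike in this, with 45.7% outside on 2L, 47.6% on 2R, 45.5% on 3L and 50% on 3R. At regions of 501 bp the share outside was 83.3% (66.4 to 92.7%) on the X and 75.4% (64.0 to 84.0%) on the autosomal arms, with intervals that overlap. At wider regions it was 64.8% (54.6 to 73.9%) on the X and 40.9% (35.5 to 46.5%) on the autosomal arms. At regions of over 1000 bp alone it was 59.6% (45.3 to 72.4%) on the X and 41.2% (33.3 to 49.6%) on the autosomal arms, again with overlapping intervals. The median width of the edge region was 849 bp on the X and 836.5 bp on the autosomal arms. Among entries in the first 1230 lines of the CTCF list the share outside was 76.5% (63.2 to 86.0%) on the X and 54.4% (46.9 to 61.8%) on the autosomal arms. Among later entries it was 64.3% (52.6 to 74.5%) on the X and 41.3% (34.7 to 48.2%) on the autosomal arms. This comparison was made after the values had been seen.

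The X supplied 24.6% (21.0 to 28.6%) of the edge peaks on the 5 large arms, against 21.2% of all CTCF peaks there. It supplied 32.4% (27.0 to 38.4%) of the outside and 15.9% (11.8 to 21.2%) of the inside edge peaks. Chromosome 4 had 8 edge peaks among its 35 CTCF peaks, and 4 of them lay outside. Another 5 edge peaks lay on 3 heterochromatic sequence names, among 35 CTCF peaks on the small sequence names.

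Along the CTCF list in deposited order, whose meaning the files do not state, edge peaks were spread more evenly than deep ones. Later entries made up 281 of the 504 members (55.8%, 51.4 to 60.0%) and 329 of the 471 peaks over 500 bp inside (69.9%, 65.6 to 73.8%). They made up 424 of the 1092 peaks over 5 kb outside (38.8%, 35.98 to 41.8%). Inside edge peaks stood nearer to the deep ones, with 61.9% (55.6 to 67.8%) among later entries, and outside edge peaks had 50.2% (44.2 to 56.2%). With the list in 10 equal parts, the share of CTCF peaks at an edge began at 17.6% (13.3 to 22.8%) in part 1. It was lowest in part 2, at 11.8% (8.34 to 16.4%), and highest in part 7, at 28.9% (23.6 to 34.8%). Part 10 had 19.5% (15.0 to 24.9%). The share over 500 bp inside was 5.71% (3.43 to 9.36%) in part 1 and 30.1% (24.7 to 36.1%) in part 7. In part 1, edge peaks were thus 43 against 14 deep ones, and in part 7 there were 71 and 74.

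**Figure D5:**
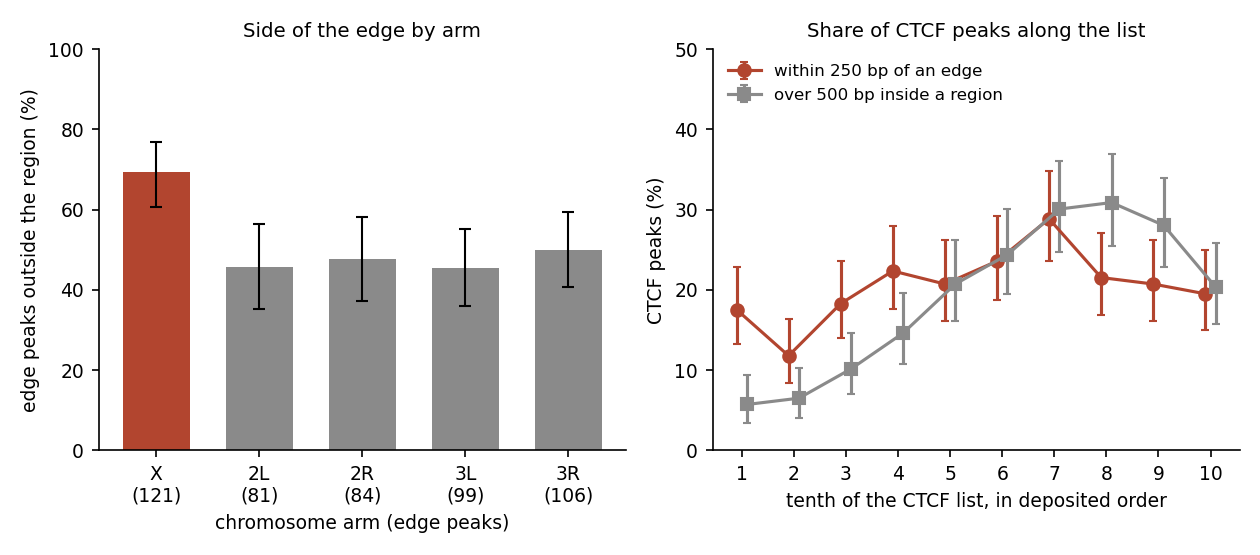
Left, percent of edge peaks with the midpoint outside the H2A.V region (vertical axis) by chromosome arm (horizontal axis, number of edge peaks in brackets). Right, percent of CTCF peaks within 250 bp of an edge and over 500 bp inside a region (vertical axis) by equal parts of the CTCF list in deposited order (horizontal axis); bars in both panels are 95% Wilson intervals. The X has 69.4% outside, and the share at an edge is 17.6% in part 1 and 28.9% in part 7.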

How the data were processed

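Called CTCF peaks and H2A.V regions from 2 single ChIP-seq libraries were used. Those of the input and of H3 were not used here. The submitters' processing notes name Bowtie 1.1.1, HOMER and dm3. Per the file headers, CTCF peaks (factor style) needed 37 tags, and 4 times the signal of the input and of the local 10000 bp. H2A.V regions (histone style) were stitched from 500 bp windows of at least 67 tags, with a distance setting of 1000 bp. The same 4-fold settings over input and local signal are given for H2A.V. Of its putative peaks, 142 were filtered by input and 0 by local signal. The values deposited by the authors are starts and ends in bp; the score and strand columns are constant and were not used.

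The edge peaks were found from the deposited starts and ends, and the peak midpoint, side, edge, gaps and spacing were computed with Python 3.11.15, NumPy 2.4.6, pandas 2.3.3 and SciPy 1.17.1, in code tested on simulated lists. Positions are printed counting from 1. The positions named are the 2 highest in the list for each class on 2L, 3L, 3R or X, the narrowest gaps, and all regions with a peak at both ends. The members, classes and comparisons were chosen with earlier results of these data known. No dm3 sequence or annotation was used, so the planned look at motifs and start sites was not run and no gene is named.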

Additional observations from a re-analysis of the deposited data

How the results depend on the processing

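No pairing of samples was possible because CTCF and H2A.V were each profiled in a single library. The share with H2A.V on the higher-coordinate flank stayed within its interval under every alternative run. The number of edge peaks was 301 with a limit of 150 bp, 195 with regions wider than 1000 bp only, and 223 and 281 among earlier and later entries of the CTCF list. The share outside was 59.5% with 150 bp, 45.6% with wide regions only, 59.2% and 47.3% among earlier and later entries, 47.3% without the X and 46.4% without regions of 501 bp. A second region across the peak was found for 8.72% with wide regions only, 12.6% and 21.4% among earlier and later entries, 13.6% without regions of 501 bp, and 4.37%, 7.94% and 30.2% with a reach of 1, 2 and 10 kb. The median gap at the peak was 46293 bp with wide regions only, 21247.5 bp among later entries and 33598.5 bp without regions of 501 bp; leaving out regions widens gaps by construction. The longer gap lay beyond the CTCF edge for 71.5% of members with wide regions only and 66.1% among earlier entries. The median region width was 690 bp with edges moved 125 bp inwards, 1387.5 bp with wide regions only and 965 bp without regions of 501 bp. The next CTCF peak was at a median of 17877 bp for earlier entries. Later entries made up 61.3% with edges moved inwards. The X share was 29.5% with 150 bp, 20.9% with edges moved inwards, and 29.5%, 29.7%, 30.9% and 31.4% without 2L, 2R, 3L and 3R, which raises it by construction. Leaving out regions of 501 bp and the comparison of gaps within a region were chosen after seeing the data. The alternatives for start sites and motifs were not run. Sites below the calling thresholds are not in the lists, so an open flank is one where no region was listed.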
